A study of Mus musculus with 13 samples.

Results

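Argonaute (AGO) binding was compared between the ischemic cortex and sham cortex of wild-type C57BL6 mice aged 7 to 8 weeks. The comparison used 9 of the 13 libraries in the series: 5 from the ipsilateral cortex after middle cerebral artery occlusion (MCAO) and 4 from sham-operated cortex. MCAO blocked the artery with a filament for 35 min and was followed by 3 h of recovery. Sham mice were anesthetized and had their arteries exposed, but received no filament. The 4 libraries from the contralateral cortex of MCAO mice entered the model to estimate the spread and are given only for context. Libraries were chosen by their labels, ipsilateral replicates 1 to 5 and sham replicates 1, 2, 3 and 5. The labels describe each replicate number as a set prepared separately from mice of 1 surgery day, and do not say how many mice went into a library.

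AGO proteins carry microRNAs (miRNAs), short RNAs whose seed, the bases near their 5′ end, pairs with matching sites, mostly in the 3'UTRs of mRNAs. The bound mRNA is then translated less or degraded. In AGO CLIP, ultraviolet light links AGO to the RNA it touches, and the sequenced fragments, called tags here, report both the loaded miRNA and the bound mRNA region. Tags on an mRNA depend on how much of that mRNA is present as well as on how much of it is bound, and fewer cells of a type cannot be told apart from less RNA per cell. Focal ischemia is known for a rapid heat shock response, release of glutamate and loss of calcium control in cortical neurons.

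The peak table held 18284 positioned peaks with 395152 tags, and 12289 of those peaks overlapped an annotated exon. Exonic tags were summed per gene for 3417 genes, and 444 genes had enough tags to be tested. Peak tags ranged from 3780 to 64216 in the ipsilateral libraries and from 17918 to 71027 in the sham libraries. Exonic tags, the denominator below, ranged from 2871 to 25138 and from 8834 to 26316. The ipsilateral and sham libraries of replicate 1 stood apart: 32.9% and 37.1% of their peak tags were exonic, against 67.9% to 76.0% in the other ipsilateral and 49.3% to 71.7% in the other sham libraries. Results that depend on ipsilateral replicate 1 are given with and without it. Markers of cortical cells were present in part. Map2 and Syt1 of neurons, Slc1a2 and Sparcl1 of astrocytes and Mbp of oligodendrocytes all had tags in every library. Of the marker lists, 11 of 14 neuron, 10 of 12 astrocyte and 6 of 12 oligodendrocyte lineage genes had tags. Those without tags included Rbfox3 and Tubb3 of neurons, Gfap of astrocytes, and Olig2 and Mog of oligodendrocytes. In each of the microglial (12 genes), vascular (12) and blood (8) marker lists at most 2 genes had tags, and the summed level never passed 6.02 tags per 10000 exonic tags.

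The heat shock gene Hspa1b, which encodes an inducible Hsp70 chaperone that refolds damaged proteins, rose in ipsilateral cortex and was the only gene to pass the test across all 444. Its level was 0, 29.0, 13.1, 32.1 and 20.9 tags per 10000 exonic tags in ipsilateral replicates 1 to 5. In sham replicates 1, 2, 3 and 5 it was 0, 0, 0 and 0.525. Replicates 2 to 5 lay far above every sham library, and replicate 1 had no tag. The log2 fold change was 6.27 ± 1.23 (SE) with an edgeR adjusted p of 0.0402, and 1 gene called is 0.225% of those tested. In tags, the ipsilateral libraries held 127 and the sham libraries 1, a ratio per exonic tag of 112 with a 95% counting interval from 19.7 to 4455. The exact permutation test of the 9 levels gave p = 0.0794 (two-sided, smallest possible 0.0159), since replicate 1 falls among the sham libraries. The call was lost when any single sham library was left out (adjusted p 0.0978 to 0.260) and when intronic and flanking peaks were added to the gene sums (0.224). Without ipsilateral replicate 2, 3, 4 or 5 Hspa1b fell under the filter on low counts and was not tested. With 1 sham and 5 contralateral tags, it was among the 444 tested genes only through its ipsilateral counts.

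Hspa1a, the near-identical neighbour of Hspa1b, also had tags in ipsilateral replicates 2 to 5 and none in replicate 1. It had 0, 8.35, 3.26, 4.01 and 6.97 tags per 10000 exonic tags in the ipsilateral libraries and 0 tags in all 4 sham libraries. Taking 3 tags over the sham group as the floor, the 33 ipsilateral tags correspond to a level at least 9.69-fold higher than sham; the lower 95% counting limit of the ratio, from 0 sham tags, was 7.45. Hspa1a had too few tags for the main test. Because the coding sequences of the 2 genes are almost the same, how tags were divided between them is uncertain. Most of their peaks lay in the 3'UTR: all 6 of Hspa1b, between chr17:34956446-34956963 (mm10), and 2 of the 3 of Hspa1a. In ipsilateral replicate 1 the 0 tags among 21157 exonic tags allow up to 1.42 tags per 10000, well under the level of the other ipsilateral libraries.

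**Figure D1:**
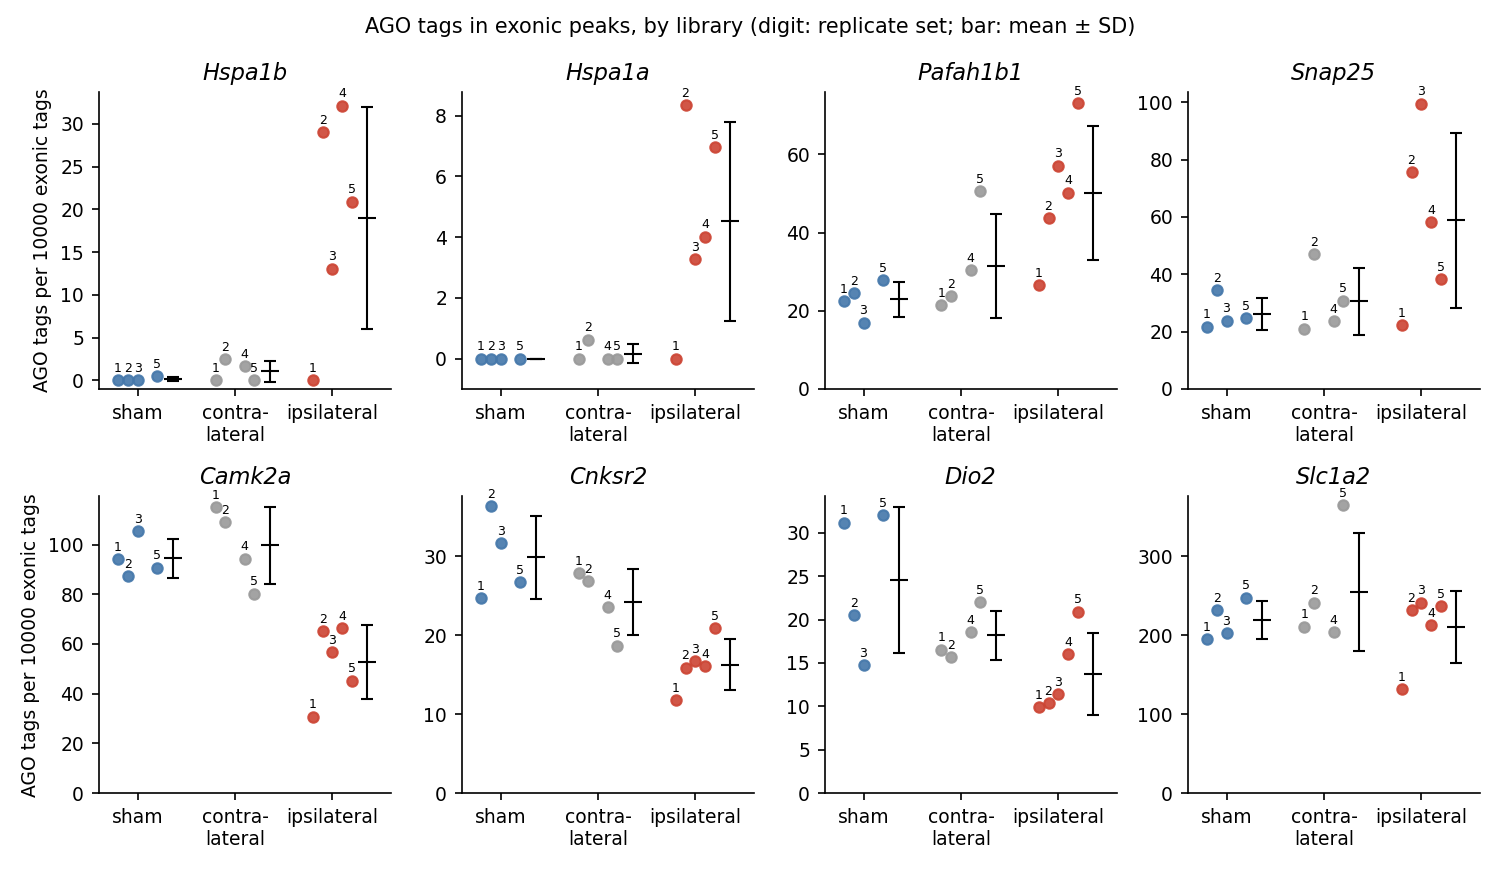
AGO tags per 10000 exonic tags (vertical axis) for 8 genes in sham, contralateral and ipsilateral libraries; each point is 1 library with its replicate set as a digit, and the bar is the mean ± SD. Hspa1b lies between 13.1 and 32.1 in ipsilateral replicates 2 to 5 and at 0.525 or less in sham, Camk2a and Cnksr2 do not overlap between ipsilateral and sham, and ipsilateral replicate 1 is the lowest ipsilateral point for all 8 genes.

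None of the other tested chaperones passed the test. Of 31 genes on the heat shock list 19 had tags, 5 were tested and 1 was called. The median log2 fold change of the 5 was 0.82, against 0.02 over all tested genes. Hspa1b is among the 5 and met the filter only through its ipsilateral counts. Hsph1, a cochaperone of Hsp70, had 11.1 ± 4.42 (SD, n = 5) against 5.27 ± 2.49 (SD, n = 4) tags per 10000, with a log2 fold change of 1.04 and an adjusted p of 0.387. Canx, a chaperone of the endoplasmic reticulum, had a log2 fold change of 0.82, and Hsp90ab1, the constitutive cytosolic chaperone, one of -0.15. Neither passed the test.

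The number of genes called depended on ipsilateral replicate 1. Without it, 10 of 422 genes passed (2.37%), of which 8 were higher and 2 lower. The higher genes were Hspa1b, Egr1, Enc1, Mef2c, Pafah1b1, Pgm2l1, Rgs4 and Snap25, and the lower genes were Cnksr2 and Dio2. When sham replicate 1 and contralateral replicate 1, which belong to the same set, were left out as well, 2 of 356 genes passed (0.562%), Hspa1b and Pgm2l1, and the other 8 had adjusted p values from 0.0789 to 0.115. Egr1, an immediate early transcription factor, had 0.945 tags per 10000 in ipsilateral replicate 1 and 9.79 to 16.1 in the other ipsilateral libraries, against 2.10 to 4.18 in sham. Its log2 fold change was 1.37 with all libraries and 1.68 without replicate 1 (edgeR adjusted p 0.426 and 0.0406). Enc1, an actin-binding neuronal protein, and Rgs4, which shortens G protein signalling, also lay above every sham library in ipsilateral replicates 2 to 5 and below every sham library in replicate 1, with log2 fold changes of 1.07 and 1.32 without replicate 1 (adjusted p 0.0229 for each). In the shallow ipsilateral replicate 5 the Egr1 level was 10.4 tags per 10000, which is the floor of that library, from 3 counts. Enc1 in the shallow ipsilateral replicate 4 had 16.05, just above the highest sham level of 15.85. Egr1, Enc1 and Rgs4 are named here after their values were seen.

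Among the genes with higher values, Snap25, a membrane SNARE that drives fusion of synaptic vesicles, had 22.2, 75.6, 99.5, 58.2 and 38.3 tags per 10000 in ipsilateral replicates 1 to 5. Sham levels were 21.7, 34.4, 23.8 and 24.7. The 4 later ipsilateral libraries lay above every sham library, and replicate 1 lay inside the sham range. This came to 1.19 ± 0.335 (SE) on the log2 scale. The adjusted p was 0.137 with all libraries and 0.0172 without replicate 1. Most of the tags were in the 3'UTR: 459 ipsilateral against 138 sham tags in 11 3'UTR peaks, and 41 against 26 in 3 coding peaks.

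Pafah1b1 encodes Lis1, a regulator of the microtubule motor dynein. It had 26.5, 43.8, 57.1, 50.2 and 73.1 tags per 10000 in the ipsilateral libraries against 22.4, 24.5, 17.0 and 27.8 in sham. Only replicate 1 overlapped sham, and the ipsilateral library was the higher one in 4 of 4 replicate sets. The log2 fold change was 1.03 ± 0.259 (SE), with adjusted p values of 0.137 and 0.0229 with and without replicate 1. Pgm2l1, a brain enzyme that makes a sugar bisphosphate cofactor, gave 1.09 ± 0.292 (SE) on the same scale, with adjusted p values of 0.137 and, without replicate 1, 0.00328. Mef2c, a transcription factor of neurons, gave 1.18 ± 0.344 (SE), with 0.139 and 0.0229. It had 143 ipsilateral against 57 sham tags, but 30 against 25 in peaks labelled 3'UTR only and 4 against 2 in its coding peak. Most of the Mef2c difference lay in peaks labelled both 3'UTR and intron, such as 1 with 20 against 4 tags.

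Other genes among those with the smallest p and higher values did not pass with or without replicate 1. They included Tppp, which stabilizes microtubules, with a log2 fold change of 1.03, and Marcks, a membrane-bound substrate of protein kinase C, with 1.55. Atp1b1, the beta subunit of the sodium pump, had a log2 fold change of 0.77, Cnr1, the cannabinoid receptor, 1.71, Rtn3, a reticulon of the endoplasmic reticulum, 0.77, and Trim9, a neuronal ubiquitin ligase, 0.77. Their adjusted p values ran from 0.137 to 0.274.

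Camk2a, the alpha subunit of the calcium/calmodulin kinase II that is abundant at excitatory synapses, had lower levels in every ipsilateral library. Its level was 30.7, 65.2, 56.7, 66.2 and 45.3 tags per 10000 in the ipsilateral libraries. The sham libraries had 94.2, 87.3, 105.3 and 90.7, and the contralateral mean was 99.6 ± 15.6 (SD, n = 4). The highest ipsilateral library lay under the lowest sham library. The log2 fold change was -0.86 ± 0.246 (SE); its edgeR adjusted p of 0.137 missed the threshold, while DESeq2 gave 0.0184. The exact permutation p was 0.0159, the smallest that test can give, and the test ignores the replicate sets. Lower values were present in both parts of the mRNA: 267 ipsilateral against 410 sham tags in 15 3'UTR peaks, and 139 against 215 in 9 coding peaks.

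Cnksr2, a scaffold of the postsynaptic density, also did not overlap between the groups. It had 11.8, 15.9, 16.7, 16.1 and 20.9 tags per 10000 in the ipsilateral libraries and 24.7, 36.4, 31.7 and 26.7 in sham. The adjusted p was 0.0965 with all libraries and 0.0406 without replicate 1, at a log2 fold change of -0.91 ± 0.210 (SE). Dio2, the deiodinase that activates thyroid hormone in glia, had 13.7 ± 4.69 (SD, n = 5) against 24.6 ± 8.41 (SD, n = 4) tags per 10000. This is -1.02 ± 0.270 (SE) on the log2 scale, with adjusted p values of 0.137 and, without replicate 1, 0.0406.

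The other genes with the smallest p among those with lower values did not pass with or without replicate 1. Phactr1, a regulator of actin and protein phosphatase, had a log2 fold change of -0.73, and Sipa1l1, a Rap GTPase-activating protein of spines, -0.59. Shank1, a postsynaptic scaffold, had -0.77, and Baiap2 had -1.22. Lnpep, a membrane aminopeptidase, had -1.18, Nisch -0.71, Zcchc14 -0.83, Dmd, which encodes dystrophin, -0.81, and Eef2, the translation elongation factor that moves the ribosome, -0.76. Their adjusted p values ran from 0.387 to 0.475.

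Of the 444 tested genes, 225 had a log2 fold change above 0 and 219 below. All 5 ipsilateral libraries lay above all 4 sham libraries for 4 genes (0.901%), among them Sparcl1 and Cdk5r1. All 5 lay below for 10 genes (2.25%): Cnksr2, Camk2a, Lnpep, Phactr1, Nisch, Eef2, Fbxl16, Kif1b, Oxct1 and Snhg11. Several of the 10 lay under the floors of the shallow ipsilateral libraries, from 3 counts. In replicate 5 (floor 10.4 tags per 10000) Lnpep and Oxct1 had 0, and Phactr1, Nisch and Eef2 had 3.48. In replicate 4 (floor 6.02) Lnpep and Oxct1 had 4.01. Their separation rests on very few tags there. These 14 genes are a description of separation by library; of the 14 none passed the edgeR test with all libraries. Single peaks were too thinly covered to add to this: 0 of 238 tested peaks were called (0%), 5 had an unadjusted p under 0.05, and DESeq2 called 0.

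**Figure D2:**
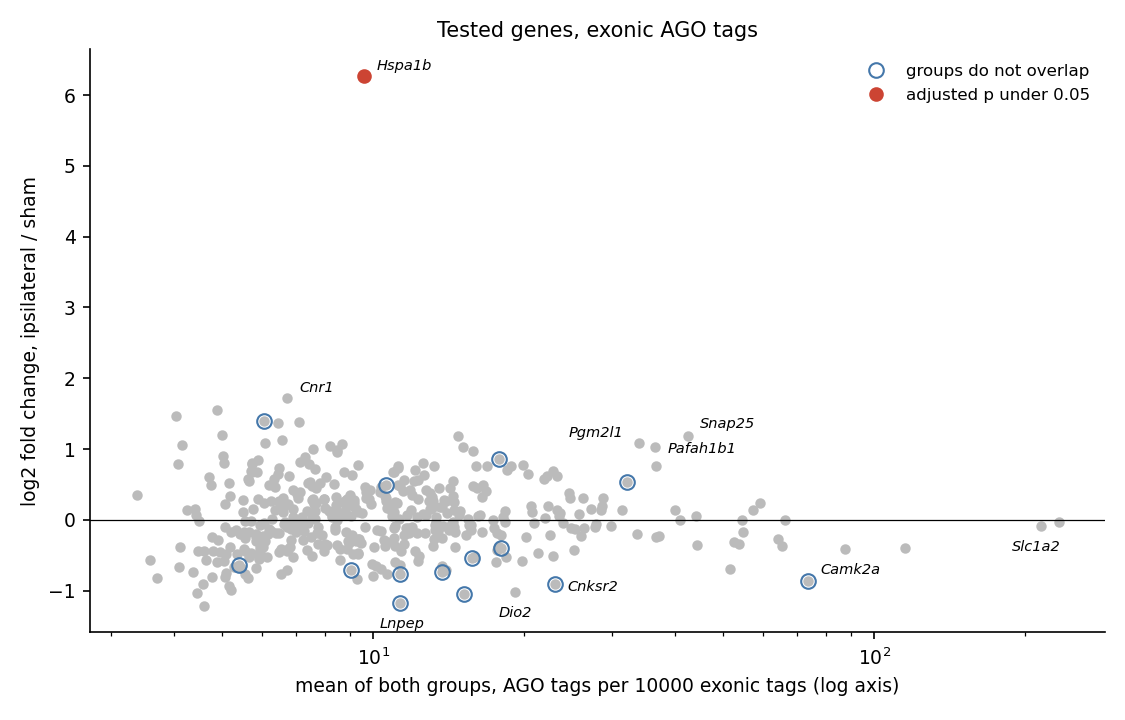
Log2 fold change, ipsilateral over sham (vertical axis), against the mean level of the 2 groups in AGO tags per 10000 exonic tags (horizontal log axis) for the 444 tested genes. Hspa1b at 6.27 is the red point that passed the adjusted threshold; the blue rings are the 14 genes whose groups do not overlap, and Slc1a2, with a log2 fold change of -0.08, is the most tagged labelled gene.

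The astrocyte genes of glutamate handling did not pass the test. Slc1a2, the astrocyte transporter that clears most synaptic glutamate, had 131.9, 231.9, 241.5, 212.7 and 236.9 tags per 10000 in the ipsilateral libraries and 195.3, 231.6, 202.6 and 247.6 in sham. Only ipsilateral replicate 1 lay below the sham range. The log2 fold change was -0.08 ± 0.266 (SE) with an adjusted p of 0.957. Glul, which converts glutamate to glutamine, had a log2 fold change of -0.09. None of the 4 tested members of the glutamate transport and metabolism list was called, and their median log2 fold change was 0.20.

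Receptor and release genes of the synapse gave values on opposite sides of 0. On the glutamate receptor and postsynaptic scaffold list, 6 of 8 tested genes were below 0, with a median log2 fold change of -0.27. Dlg2, a scaffold of NMDA receptors, had -0.25, and Gria3, an AMPA receptor subunit, -0.50. On the synaptic vesicle release list 17 of 21 tested genes were above 0, with a median of 0.24. Syt1, the calcium sensor of release, had 60.6 ± 12.4 (SD, n = 5) against 53.8 ± 10.0 (SD, n = 4) tags per 10000. On the GABA list 5 of 6 tested genes were above 0, with a median of 0.33. None of these 35 list members was called in either direction with all libraries.

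The calcium and CaM kinase list split evenly, 7 of 14 tested genes above 0 and a median log2 fold change of 0.03. In the cytoskeleton list 14 of 22 genes were below 0, with a median of -0.11, and Map2, which stabilizes dendritic microtubules, had -0.42. Immediate early genes had 3 of 4 tested genes above 0; Homer1, whose short form is induced by activity, had a log2 fold change of 0.42. Of 40 genes on that list 17 had any tag. None of these members was called by edgeR with all libraries, while DESeq2 called Camk2a, a member of the calcium list.

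Nuclear long noncoding RNAs lay below 0 in 3 of 3 tested cases, with a median log2 fold change of -0.69. Malat1 had 97.5 ± 38.0 (SD, n = 5) against 133.0 ± 12.5 (SD, n = 4) tags per 10000, and Meg3 40.1 ± 12.4 against 63.1 ± 31.4. Oligodendrocyte markers were below 0 in 4 of 4 cases, with a median of -0.41: Mbp, a myelin protein, had 17.2 ± 6.73 against 25.4 ± 5.01, and Qk, a glial RNA-binding protein, 35.8 ± 16.3 against 38.5 ± 2.79. The summed level of the 12 oligodendrocyte lineage genes was 62.1 to 80.3 in the ipsilateral and 81.3 to 91.3 in the sham libraries, while that of the 14 neuron markers was 180.6 to 354.8 and 288.7 to 340.1. The part that cell composition plays in the gene differences above was not tested. Among genes of the miRNA machinery, 4 of 5 tested were below 0, with Tnrc6b, a partner of AGO in silencing, at -0.59. None of these members was called by edgeR with all libraries. No member of the apoptosis or inflammation lists had enough tags to be tested, and 1 of the hypoxia list did.

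**Figure D3:**
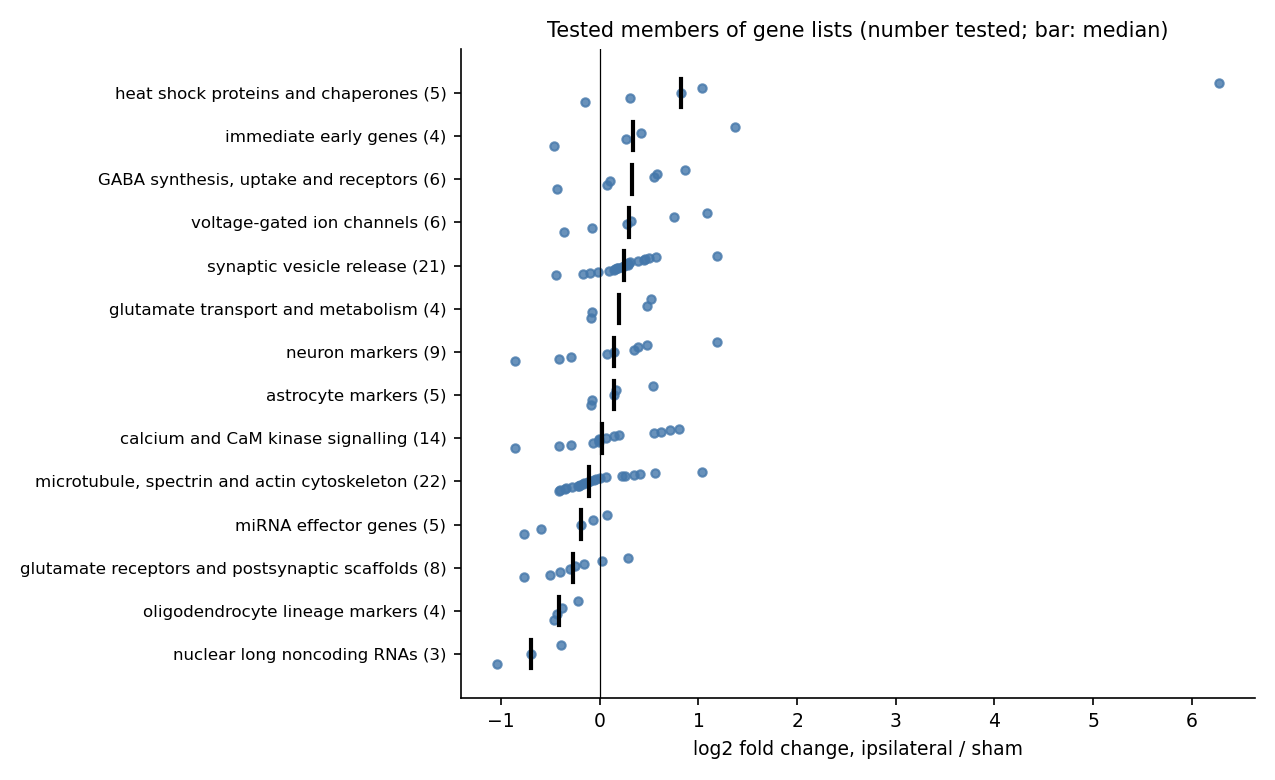
Log2 fold change, ipsilateral over sham (horizontal axis), of each tested gene in the 14 lists with at least 3 tested genes; each point is a gene, the bar is the list's median and the number tested is in parentheses. Medians run from -0.69 for nuclear long noncoding RNAs to 0.82 for heat shock genes, and Hspa1b is the point beyond 6.

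The 3'UTR share of exonic AGO tags had a higher mean in ipsilateral cortex, but did not pass the adjusted test. The 3'UTR share of exonic tags was 67.1%, 66.4%, 66.6%, 63.0% and 67.5% in the ipsilateral libraries. It was 64.9%, 56.1%, 59.3% and 58.7% in sham, and 60.1% ± 2.66 (SD, n = 4) in contralateral libraries. The groups overlapped only through ipsilateral replicate 4 and sham replicate 1, and the ipsilateral share was the higher one in 4 of 4 replicate sets, by 2.28 to 10.2 percentage points. The means were 66.1% ± 1.78 (SD, n = 5) and 59.7% ± 3.68 (SD, n = 4), with an exact permutation p of 0.0317. Adjusted over the 5 exon classes it was 0.159, which misses the threshold. The coding share was the lower by 5.44 percentage points, 19.4% ± 2.01 (SD, n = 5) against 24.8% ± 4.09 (SD, n = 4), with an exact permutation p of 0.0794. This measure was added after the data had been seen.

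The same tags were then counted inside single genes, which is not a separate measurement. Tags were pooled over libraries for the 384 genes with 3'UTR and coding peaks and at least 20 such tags in each group. The 3'UTR percentage of a gene's tags was higher in ipsilateral cortex for 276 genes (71.9%) and lower for 107, with a median difference of 4.85 percentage points. Without replicate set 1 it was higher for 223 of 289 genes (77.2%). Map1b, which binds axonal microtubules, went from 46.7% in sham to 60.4% in ipsilateral cortex, Syt1 from 45.1% to 58.9%, and Prkcb, a calcium-dependent protein kinase, from 66.2% to 81.3%. Slc1a2 stayed at 85.4% in both groups, and Camk2a had 65.6% and 65.8%. Map1b and Prkcb are among the genes with the most tags and were named after their values were seen. These counts are over genes that share libraries, so they carry no test.

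Shares of all peak tags by region did not separate the groups. The 3'UTR share of all peak tags was 22.1% to 51.3% in the ipsilateral and 24.0% to 42.1% in the sham libraries, and the intronic share 16.9% to 41.4% and 19.0% to 40.3%. Replicate 1 supplied the lowest 3'UTR share and the highest intronic share in both groups. The exact permutation p adjusted over 8 region classes was at least 0.931.

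**Figure D4:**
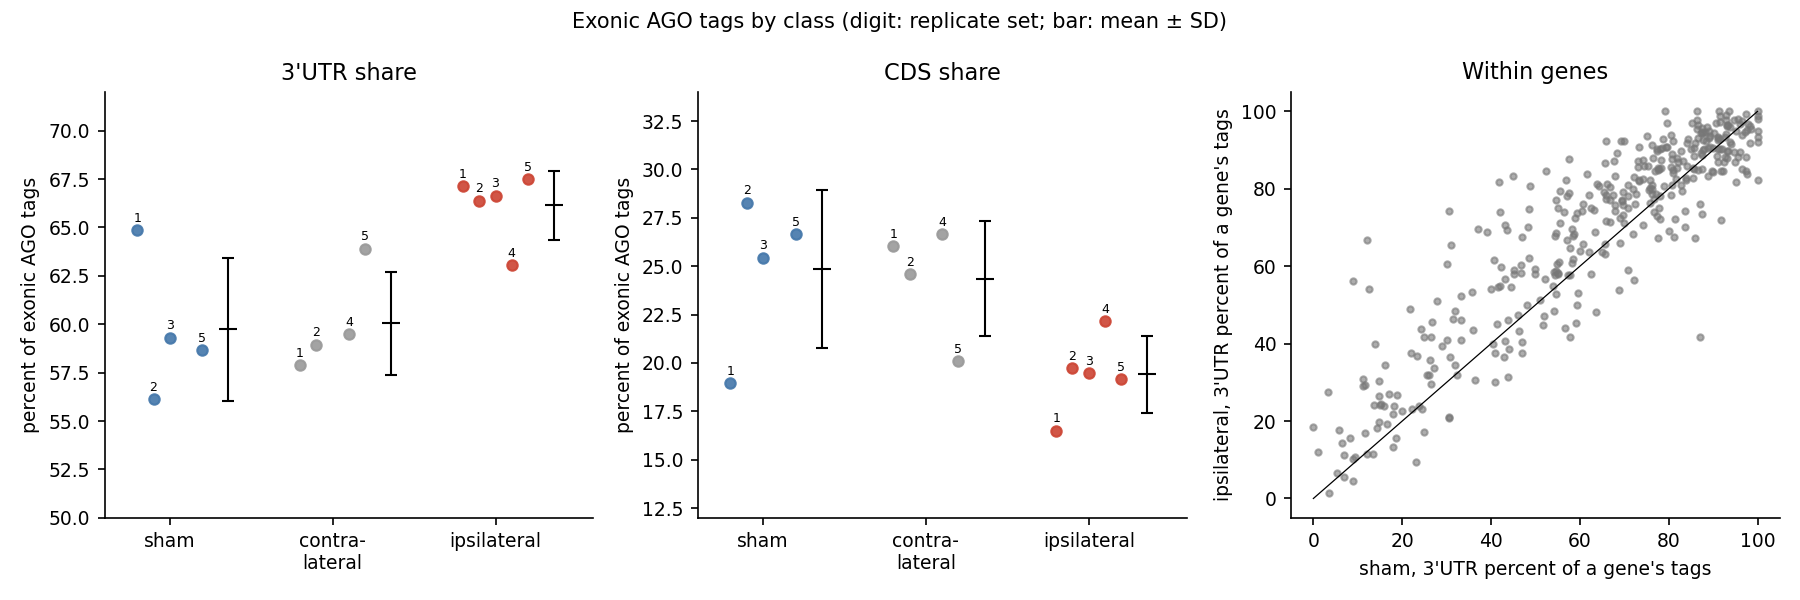
Left and middle, the 3'UTR and coding (CDS) shares of exonic AGO tags in percent for each library, with the replicate set as a digit and the bar as mean ± SD (axes do not start at 0). Right, the 3'UTR percentage of a gene's 3'UTR and coding tags in ipsilateral against sham cortex for 384 genes; 276 lie above the line of equality.

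Seed families were compared next, because a 3'UTR peak over a seed site is the footprint expected where a loaded miRNA pairs. The miR-29 family is abundant in the mature brain, in neurons and astrocytes, and is known for many sites in mRNAs of the extracellular matrix. Its 3 members share 1 seed. They are printed 5′ to 3′ with bases 2 to 8, the seed, in capitals, as given by RefSeq for GRCm38.p6.
miR-29a-3p: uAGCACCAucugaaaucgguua
miR-29b-3p: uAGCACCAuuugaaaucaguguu
miR-29c-3p: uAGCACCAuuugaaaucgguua
A site was counted where the transcript under a peak matched TGGTGCT, the complement of the seed, or GGTGCTA, the complement of bases 2 to 7 followed by A, on the transcript strand only; both overlap in an 8-base site. Of 6695 3'UTR peaks with transcript sequence, 110 held such a site.

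Tags in those miR-29 site peaks fell in ipsilateral cortex. They made up 2.09%, 1.77%, 1.60%, 1.66% and 1.83% of 3'UTR tags in ipsilateral replicates 1 to 5. Sham replicates 1, 2, 3 and 5 had 2.86%, 2.43%, 2.33% and 2.27%, and the contralateral libraries a mean of 2.38%. Every ipsilateral library lay under every sham library, replicate 1 included. Of the 41 families this also held for miR-9 and miR-19, while the groups of all the others overlapped. The miR-19 family had 1.26% to 1.40% in ipsilateral and 1.42% to 1.55% in sham libraries. Its log2 fold change was only -0.12 (edgeR adjusted p 0.601), so separation alone does not mark a large difference. The log2 fold change was -0.47 ± 0.100 (SE), with an edgeR adjusted p of 0.00602 over 41 families. The exact permutation p was 0.0159, the same as for miR-9 and miR-19. miR-29 was the 1 family called of 41 (2.44%). It was not called when all exonic tags served as the library size (log2 fold change -0.32, adjusted p 0.209) or when sham replicate 1 was left out (-0.38, adjusted p 0.0508).

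The lower tags were spread over many site peaks. Of the 110 site peaks 81 had a lower mean share in ipsilateral libraries (73.6%), against 3350 of the 6585 3'UTR peaks without a site (50.9%). By gene, 76 of 105 genes with a site peak were lower in their site peaks (72.4%). By the tags of all their 3'UTR peaks, 1201 of 2331 genes were lower (51.5%). Sparc, a secreted matrix glycoprotein made by glia and vessels, held 17.2% of the family's tags. Pcdha3 held the next largest part, 6.91%, and was not left out. Without Sparc the family share was 1.49% ± 0.142 (SD, n = 5) against 2.11% ± 0.0976 (SD, n = 4), and again no library of the 2 groups overlapped.

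One site from the most tagged site peak of each of 5 genes is printed to show what lay under AGO peaks, 5′ to 3′ on the transcript strand, with the match to the miR-29 seed in capitals. The Sparc and Purg peaks hold 2 sites each, and the Purg and Atp1b1 sequences begin or end outside their peaks. All lie in the 3'UTR, with sequence from GENCODE M21 (GRCm38, the mm10 assembly).
Sparc, chr11:55395431-55395460, minus strand: ttaactgaatacattaacGGTGCTAaaaaa
Slc1a2, chr2:102788541-102788570, plus strand: ataagaagaataaaggccGGTGCTAatagc
Dpysl2, chr14:66804381-66804410, minus strand: ctagtttctgttaagatTGGTGCTAtccaa
Purg, chr8:33417272-33417301, plus strand: taggtcctaaactcctgTGGTGCTAattcc
Atp1b1, chr1:164437415-164437444, minus strand: tctggaggcatcatgcgcTGGTGCTgcgtc
The peak over the Slc1a2 site had 6.96 ± 3.40 (SD, n = 5) tags per 10000 3'UTR tags in ipsilateral and 10.0 ± 5.17 (SD, n = 4) in sham libraries. The peak over the Purg site, in the mRNA of a purine-rich element binding protein, had 2.22 ± 2.14 against 6.17 ± 3.50. The Atp1b1 site peak went the other way, 5.19 ± 3.60 against 2.72 ± 2.16. Single site peaks were thin, and none of the 3 differences passed the test (exact permutation p 0.381, 0.0952 and 0.270, and 0.653, 0.381 and 0.648 adjusted over 12 highly tagged site peaks).

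Other families with lower shares did not pass. The miR-9 family had -0.29 ± 0.104 (SE; adjusted p 0.213), with 2.06% ± 0.172 (SD, n = 5) of 3'UTR tags against 2.54% ± 0.119 (SD, n = 4) and no overlap. The let-7 family had -0.39 ± 0.161 (SE; adjusted p 0.313), and 0.0167 without replicate set 1. The miR-7 family had -0.39 ± 0.174 (SE; adjusted p 0.313), and with the replicate set as a block its value was -0.51 with an adjusted p of 0.00485. Their miRNAs are the following, with seeds in capitals.
miR-9-5p: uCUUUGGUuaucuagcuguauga
let-7a-5p: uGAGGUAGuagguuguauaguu
miR-7a-5p: uGGAAGACuagugauuuuguugu
The 5 families with the most tags had smaller log2 fold changes: miR-23 0.15, miR-129 0.05, miR-27 -0.02, miR-495 -0.10 and miR-26 -0.18. The median over the 41 families was -0.06.

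**Figure D5:**
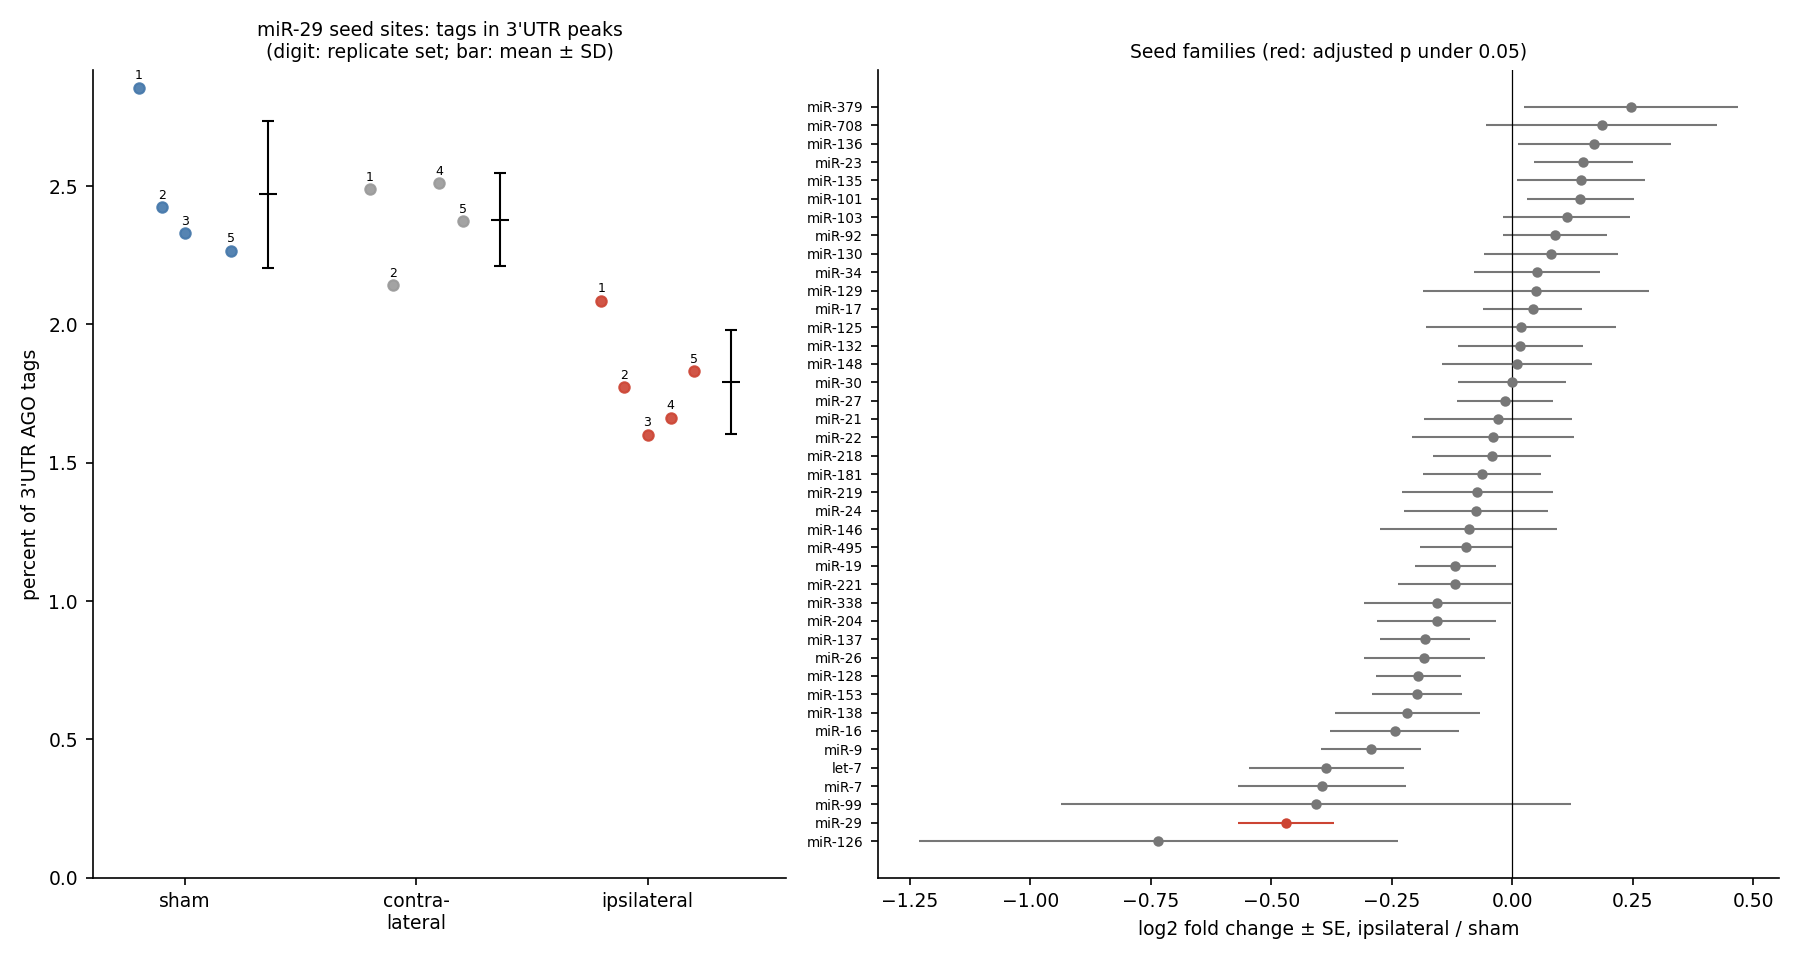
Left, the percentage of 3'UTR AGO tags in peaks with a miR-29 seed site, by library, with the replicate set as a digit and the bar as mean ± SD. Right, the log2 fold change, ipsilateral over sham, with its SE for 41 seed families; miR-29 at -0.47 is the red point that passed the adjusted threshold.

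The miRNAs loaded on AGO gave no called difference: 0 of 1427 tested miRNAs passed (0%), 35 had an unadjusted p under 0.05, and DESeq2 called 0. All 5 ipsilateral libraries lay above all 4 sham libraries for 7 miRNAs (0.491%) and below for 7 (0.491%). The median log2 fold change was near 0, at -0.0036. The table was flat: the median miRNA had 120 tags over the 9 libraries, 75.9% of 1705 miRNAs were within 2-fold of it, and the 10 most tagged held 8.72% of tags. The brain miRNAs let-7c-5p and miR-338-3p had 1.67 and 0.55 times the median. In so flat a table, the absence of a call does not show that loading was unchanged.

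The miR-29 family on AGO was led by miR-29b-3p, with 660 tags over the 9 libraries, 5.50 times the median miRNA, followed by miR-29a-3p with 330 and miR-29c-3p with 108. miR-29a-3p had 6.04, 12.9, 6.04, 9.88 and 20.8 tags per 10000 miRNA tags in the ipsilateral libraries against 16.1, 19.9, 3.61 and 11.0 in sham. The groups overlapped over nearly their whole range. The log2 fold changes were -0.53 for miR-29a-3p, -0.15 for miR-29b-3p and -0.999 ± 0.444 (SE) for miR-29c-3p, each with an adjusted p of 1.00. The fall in miR-29 site tags stands beside miRNA values that did not pass a test in these libraries.

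The miRNAs with the smallest p had few tags. Those with higher values included miR-5709-3p, with 3.74 to 10.8 tags per 10000 miRNA tags in ipsilateral and 3.52 to 4.01 in sham libraries, and miR-7646-5p, with 4.49 to 7.79 and 1.34 to 4.42. Those with lower values included miR-5123, with 2.60 to 4.15 and 5.22 to 9.05, miR-6991-5p, with 0 to 3.42 and 3.58 to 5.28, and miR-451a, the red cell miRNA, with 3.23 to 7.79 and 4.01 to 8.76. The first 4 are printed with the seed in capitals; they share no seed.
miR-5709-3p: aAAGUCUUaaggguguguauug
miR-7646-5p: aCAAGAGAacugaucagugcug
miR-5123: uGUAGAUCcauaugccauggugug
miR-6991-5p: uGGAGAACagggacugggccug
Groups did not overlap for miR-7646-5p, miR-5123 and miR-6991-5p. Their adjusted p values were 1.00.

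The most tagged miRNAs were a mix of known brain miRNAs and sequences of low complexity. miR-26a-5p had 90.4 to 270.1 tags per 10000 miRNA tags in ipsilateral and 79.9 to 168.6 in sham libraries, and the neuronal miR-124-3p 92.5 to 160.8 and 99.2 to 161.9. miR-574-5p, rich in repeats of G and U, had 23.4 to 72.5 and 56.8 to 78.0, and miR-1187, which is similar, 28.6 to 55.2 and 40.2 to 74.9. miR-16-5p, of the miR-15 family, had 23.4 to 176.6 and 15.3 to 90.0. Their sequences show the contrast, with seeds in capitals.
miR-26a-5p: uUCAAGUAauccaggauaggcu
miR-16-5p: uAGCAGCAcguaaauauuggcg
miR-574-5p: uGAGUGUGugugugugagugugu
miR-1187: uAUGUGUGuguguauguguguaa
miR-30d-5p, of the miR-30 family, had 40.4 to 137.6 and 15.2 to 59.8, with a log2 fold change of 0.82 ± 0.435 (SE). None of these miRNAs passed the test (edgeR adjusted p 1.00 for each).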

How the data were processed

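AGO CLIP tags were measured in cortex libraries of the 3 groups. The authors' deposited tables hold raw counts of tags per AGO peak and per mature miRNA, not normalized; the submitters' processing notes name Novoalign and mm10. The peak caller and the handling of duplicates are not stated there. If duplicates were kept, tags are not independent molecules, and intervals and floors cover counting error only. Depth per library is given in the text; it limits the shallow ipsilateral replicates 4 and 5 most (floors of 6.02 and 10.4 tags per 10000 exonic tags, from 3 counts).

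One peak without a position was left out. A peak was exonic if its deposited region named an exon class; counts were summed by gene. Tests were edgeR 4.0.16 quasi-likelihood fits (TMM, filterByExpr, all 13 libraries in 1 fit, two-sided, Benjamini-Hochberg adjusted p under 0.05 over every feature tested), in R 4.3.3; DESeq2 1.42.0 was an alternative. Gene and miRNA fits of the same kind were run on simulated counts with a common spread for all features. The outcome is not reported here, and the seed family fit was not simulated. Single values used exact two-sided permutation tests over 126 splits. Seed sites were searched in GENCODE M21 transcript sequence under peaks with at least 50 bases of it, for 41 families, with 3'UTR tags as library size; 1469 of 1705 miRNAs matched a RefSeq sequence.

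The replicate number marks a preparation set and surgery day, per the labels, so it pairs libraries; deviations of same-numbered ipsilateral and sham libraries correlated at 0.521, 0.282, 0.0036 and 0.220 for sets 1, 2, 3 and 5 (gene sums). The fit has no block. Named genes were those called, the 12 smallest p in each direction, the 2 most tagged tested members of each list, Slc1a2, Hspa1a and Hspa1b; for miRNAs and families the called, those with the smallest p and the most tagged. Members, lists and rules were chosen with earlier results of these data known. Alternatives were the replicate block, DESeq2, no TMM, no filter, other peak sets and omitted libraries. Some genes that met these rules are not reported here.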

Additional observations from a re-analysis of the deposited data

Results flagged for a closer look

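Single libraries that lay far from the rest of their group were looked for in 165 groups of values, and 18 were found. A chance rate of about 1 in 20 groups holds only for independent groups. These groups come from the same libraries, and region shares are parts of 1 total, so the count cannot be read against that rate. Ipsilateral replicate 1 accounted for 10 of the 18. Its shares of peak tags were 32.9% in exons as a whole (67.9% to 76.0% in the other ipsilateral libraries), 22.1% in the 3'UTR, 5.44% in coding sequence, 3.38% in exons of more than 1 class and 1.50% in noncoding exons, and 41.4% in introns and 19.0% in deep intergenic peaks. It also had the lowest Slc1a2 level, 131.9 tags per 10000 exonic tags against 212.7 to 241.5, and the lowest Glul level, 15.6 against 31.4 to 34.1. Its share of 3'UTR tags in miR-26 site peaks was 3.39% against 2.46% to 2.72%. Ipsilateral replicate 5, the shallowest library, had 3.48 tags per 10000 for Eef2 and 0 for Oxct1. Among its miRNAs, miR-451a had 7.79 and miR-16-5p 176.6 tags per 10000 miRNA tags, both above the other ipsilateral libraries. In ipsilateral replicate 4 the 3'UTR share of exonic tags was 63.0%, under the other 4. Among sham libraries, replicate 2 was high for Trim9 (12.6 tags per 10000) and miR-124-3p (161.9), and replicate 5 held the only sham tag of Hspa1b (0.525).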

How the results depend on the processing

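The edgeR count of called genes, 1 with all libraries, was 2 with DESeq2 (Hspa1b and Camk2a), 2 with no filter (Hspa1a and Hspa1b), 2 without replicate set 1 (Hspa1b and Pgm2l1) and 0 with all peaks of a gene, where Hspa1b had an adjusted p of 0.224. It ran from 0 to 10 when single libraries were left out, 10 being without ipsilateral replicate 1 and 0 without any other. With the replicate block it stayed at 1, and Hspa1b had an adjusted p of 0.000196. Called single peaks went from 0 to 1 without TMM factors; called miRNAs stayed at 0 under every alternative run. Called seed families, 1 with all libraries, were 2 with the replicate block (miR-29, miR-7), 2 with all exonic peaks (miR-29, miR-126), 2 without replicate set 1 (miR-29, let-7; chosen after seeing the data), 0 with all exonic tags as library size, and 0 to 1 with single libraries left out. That last scaling moved the families' median log2 fold change from -0.06 to 0.08. The block changed no other call among the genes, miRNAs and families named. Of the 1094 alternative values of named features, 21 changed sign, and none of those passed the test. They belong to Glul (0.0432 without set 1, -0.176 to 0.0261 leaving out single libraries), miR-29b-3p (0.0560 without set 1, -0.384 to 0.0198), miR-124-3p (-0.0962 with the replicate block, -0.0425 to 0.228), miR-16-5p (-0.445 to 0.817), miR-129 sites (-0.167 to 0.292), miR-27 sites (0.134 with all exonic tags, -0.0573 to 0.0413) and miR-495 sites (0.0523 with all exonic tags, 0.0070 with all exonic peaks). Region shares of peak tags passed no test under any setting. Their ipsilateral minus sham differences changed sign for noncoding exons (-0.0091 percentage points without Rn45s and miRNA hairpin genes, -0.0296 within sets with the replicate block, -0.170 to 0.292) and peaks within 10 kb of a gene (-0.0352 without those genes, -0.0552 without set 1, -0.199 to 0.267). Leaving out single libraries they also did so for the 5'UTR (-0.0521 to 0.0053), coding sequence (-4.20 to 0.0300), deep intergenic peaks (-4.67 to 0.441) and exons of more than 1 class (-0.162 to 1.13). The 3'UTR share of exonic tags was 5.21 to 8.11 percentage points higher in ipsilateral libraries when single libraries were left out. Where no cause is given, the cause was not tested. Depth limits genes under the floors of the shallow libraries, and single peaks most; p-values measure the spread between these libraries.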
